A study of Mus musculus with 12 samples.

Results

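The comparison of Atrx-cKO with control hippocampus in female mice rests on the 6 libraries titled F, out of 12 in the study. They were taken by title, and each is also labelled female: 3 are labelled control and 3 Atrx-cKO, a conditional knockout of Atrx. The other 6 libraries come from males of the same genotypes. All mice were 3 months old, and total RNA of the hippocampus was sequenced after depletion of ribosomal RNA. Neurons are the site of deletion according to the series title. The Cre driver, the deleted exons and what the controls carry at Atrx and Cre are not given in the sources used here. From the design text each library reads as 1 mouse, but no label states this, so the p-values measure the spread between these libraries.

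ATRX is a chromatin remodeller encoded on the X chromosome. With its partner DAXX it deposits the histone variant H3.3 at heterochromatin, such as pericentromeric and telomeric repeats, and mutations in the human gene cause an intellectual disability syndrome with alpha-thalassaemia. In a conditional knockout only the cells that express Cre lose the gene, so hippocampal tissue keeps Atrx RNA from the cells without Cre. In bulk RNA, fewer cells of a type and less RNA per cell cannot be told apart.

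Library quality was uneven, and the 2 poorest libraries are both cKO. Olfactory and vomeronasal receptor genes (Olfr, Vmn1r and Vmn2r) are silent in hippocampus, so reads over them measure coverage that does not come from their expression. The median level over 1459 such genes was 0.180, 0.0863 and 0.602 on the FPKM scale in controls 1 to 3, and 0.305, 1.97 and 2.25 in cKO 1 to 3. cKO 2 and cKO 3 stood above every control, whereas cKO 1 lay inside the control range, and the groups did not separate by an exact two-sided permutation test (p = 0.2, smallest possible 0.1). If every exonic base carried that background, it would make up 1.2% to 8.15% of the bases assigned to genes in controls, 4.24% in cKO 1, 26.4% in cKO 2 and 30.1% in cKO 3. Mapped bases ran from 3.60 to 7.90 Gb in controls and were 4.26, 1.16 and 2.86 Gb in cKO 1 to 3. The first principal component held 68.6% of the variance and set cKO 2 and cKO 3 (44.7 and 38.4) apart from cKO 1 (−16.1) and the controls (−33.5 to −9.08).

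**Figure D1:**
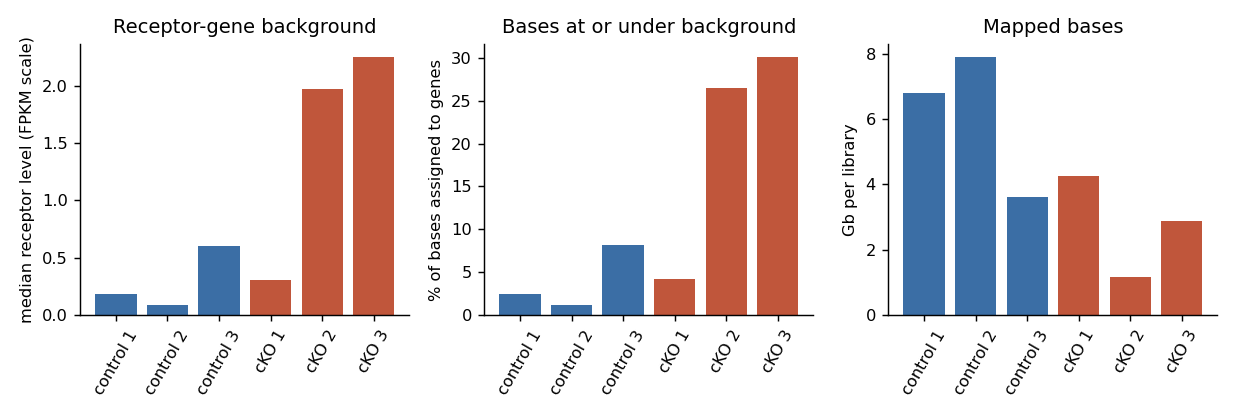
Receptor-gene background (median level over silent Olfr and Vmn genes, FPKM scale), share of bases at or under that background (%) and mapped bases (Gb), one bar for each female library, controls in blue and cKO in red. Background was 1.97 in cKO 2 and 2.25 in cKO 3, against at most 0.602 in the other 4 libraries.

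Because of this background, levels are given on 2 scales. The deposited level is the authors' FPKM (fragments per transcript length and sequencing depth), summed over the transcripts of a gene. The subtracted level is the bases per union exon of the gene on the FPKM scale, less the receptor background of the same library, with libraries scaled to each other. The 2 scales differ in size for a gene with many overlapping transcripts, so levels are compared only within a scale. The test was limma on log2(subtracted level + 0.5) over the 6053 genes whose mean level over the 6 libraries reached 5, and differences are log2, cKO minus control, ± SE. A gene under 5 in 1 group could thus enter through the other group, and its difference is then partly set by the filter.

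Atrx itself (chrX:105797615-105929403, minus strand, GRCm38.p6) was lower in all cKO libraries. Its subtracted level was 10.4, 11.6 and 10.8 in controls 1 to 3 and 5.27, 5.74 and 6.21 in cKO 1 to 3, which is 10.9 ± 0.654 (SD, n = 3) against 5.74 ± 0.467. The deposited FPKM was 55.6, 58.8 and 63.6 in controls and 31.0, 36.1 and 38.2 in cKO. The groups did not overlap on either scale, and the exact two-sided permutation test gave p = 0.1, the smallest that 3 against 3 allows. The limma difference was −0.87 ± 0.098 with an adjusted p of 0.112, so the deleted gene itself missed the threshold of 0.05. It kept its direction in 22 of 22 alternatives, and with cKO 1 as the only knockout, that is without the 2 high-background libraries, it was −0.99 with an adjusted p of 0.253 by limma, where the lone library is assumed to vary like the controls.

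Over all genes, limma called 0 of 6053 higher and 0 lower in cKO females at an adjusted p of 0.05, a background of 0%, and the smallest adjusted p was 0.0873. At an unadjusted p of 0.05, 369 genes lay on the higher side (6.1%) and 203 on the lower side (3.35%), together 9.45%. No other tool was run on these FPKM values. The median difference over all tested genes was 0.00, and it was −0.00 over the 5026 protein-coding ones. As deposited, with no scaling between libraries, the median over all tested genes was −0.22. Counts of genes whose groups do not overlap depended on the scale: 470 genes lay above (7.76%) and 444 below (7.34%) on the subtracted scale, against 181 above (2.99%) and 865 below (14.3%) as deposited. On both scales at once, 120 genes lay above (1.98%) and 298 below (4.92%). With the deposited median at −0.22, lying below on both scales was easier for any gene than lying above. Restricted to the 1522 genes with a mean level of 20 or more, 0 lay above and 57 below.

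The result turned on cKO 1. Without it limma called 388 genes higher and 128 lower of 5970 (8.64% in all), with cKO 2 and cKO 3 as the only knockouts. Of the 477 of these genes also tested with all 6 libraries, cKO 1 lay inside the control range for 281, outside it on the same side for 142 and outside it on the other side for 54. Those 2 knockouts are the libraries of highest receptor background, and its part in these calls was not tested. In a fit of all 12 libraries, whose spread is shared with the males, 2 genes were called higher and 4 lower in females of 6466 (0.0928%): Snhg8 and Rnf19b above, and Mtfp1, Atrx, Fam155a and Sez6l below.

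**Figure D2:**
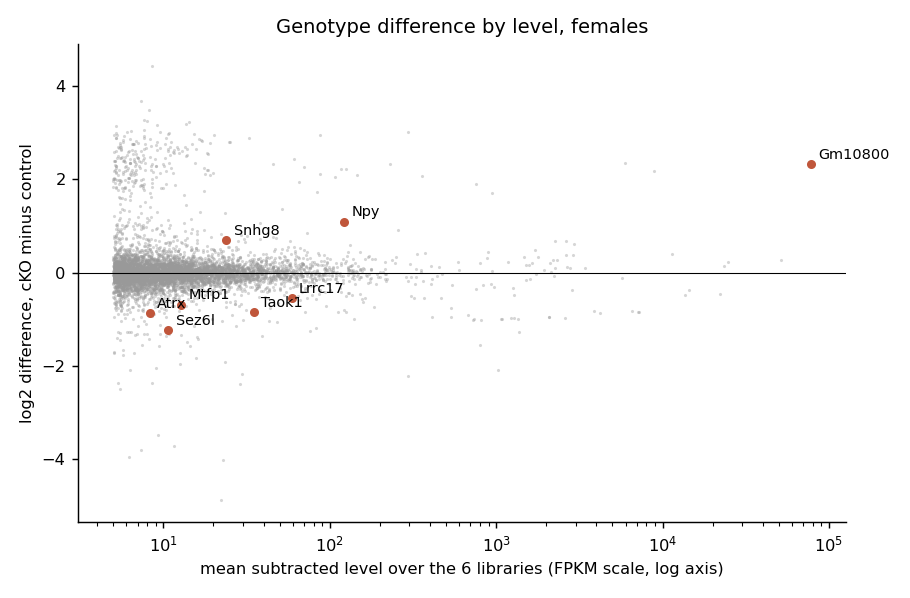
Log2 difference, cKO minus control, of each of 6053 tested genes (vertical axis) against its mean subtracted level over the 6 female libraries (FPKM scale, log axis), with 8 genes marked in red. Most genes lie near 0, and a cloud of genes lies above 1.5, among them Gm10800.

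Beside Atrx, the genes of smallest p on the lower side were Sez6l, Mtfp1 and Fam155a, and none of them passed in the fit of 6 libraries. Sez6l (chr5:112419151-112577185), a brain transmembrane protein of the SEZ6 family and a substrate of the protease BACE1, had subtracted levels of 16.1, 14.0 and 15.7 in controls and 6.94, 5.92 and 5.70 in cKO. Every cKO library was below every control on both scales, and the difference was −1.24 ± 0.106 with an adjusted p of 0.0873. With the test restricted to protein-coding genes, an alternative added after seeing the data, Sez6l was the 1 gene called, with an adjusted p of 0.0421. Its relatives differed less: Sez6 was −0.44 (6.99, 5.08 and 5.45 against 4.91, 5.56 and 2.55), with overlapping groups, and Sez6l2 was −0.02.

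Mtfp1 (chr11:4091480-4095445) encodes an inner-membrane protein that promotes mitochondrial fission. Its subtracted level was 15.8, 15.6 and 16.5 in controls and 9.85, 9.54 and 9.78 in cKO, so all cKO libraries sat below all controls, as they did on the deposited scale. The difference was −0.69 ± 0.067 with an adjusted p of 0.0873. Among the 14 listed fission and fusion genes 8 were tested, Mtfp1 was the 1 member below on both scales (4.92% over all tested genes), and the list median was −0.05. Mfn2, a mitofusin of the outer membrane, was −0.14 with overlapping groups.

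Fam155a (chr8:9205902-9771161) encodes a protein that assembles with the sodium leak channel NALCN, which helps set the resting excitability of neurons. Its subtracted level was 12.0, 13.1 and 14.4 in controls and 7.76, 7.76 and 7.87 in cKO. All cKO libraries were below all controls on both scales, with a difference of −0.71 ± 0.091 and an adjusted p of 0.195. The channel subunit itself, Nalcn, was −0.04, and the scaffold Unc80 was −0.06, both with overlapping groups. Unc79, the other member of the complex, was under the level filter.

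On the lower side by the same order of p followed Lrrc17, Lonrf2, D430041D05Rik, Nenf, Wdr26 and Wfs1, all with an adjusted p of 0.503. Lrrc17, a secreted leucine-rich repeat protein, was at 69.6, 70.8 and 69.9 in controls and 52.5, 49.6 and 41.8 in cKO, a difference of −0.55. All cKO libraries lay below all controls on both scales. Lonrf2 (−0.41, a RING-finger protein), Nenf (−0.36, the secreted factor neudesin), Wdr26 (−0.50, a subunit of the CTLH ubiquitin ligase) and D430041D05Rik (−0.72) were also below on both scales. D430041D05Rik had a cKO mean of 4.07, so it passed the level filter only through its controls. Wfs1, the endoplasmic reticulum protein wolframin and a marker of CA1 pyramidal neurons, was −0.55 on the subtracted scale, but its groups overlapped as deposited, where cKO 1 (21.2) exceeded controls 1 and 3 (17.0 and 12.8).

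On the higher side Snhg8, a noncoding host gene of a small nucleolar RNA (chr3:123507552-123508404), had the smallest p. Its subtracted level was 18.6, 17.4 and 18.5 in controls and 28.7, 29.1 and 31.3 in cKO, a difference of 0.69 ± 0.071 with an adjusted p of 0.0873. As deposited the groups overlapped: 41.7, 40.1 and 38.1 in controls against 63.3, 38.0 and 39.5 in cKO, and the exact two-sided permutation test gave p = 0.9. The gain in cKO 2 and cKO 3 is thus seen only after subtraction and scaling.

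Gm4631 had the next smallest p among the higher genes. It was at 5.33, 5.21 and 5.06 in controls and 9.28, 9.29 and 9.15 in cKO, a difference of 0.77 ± 0.080 with an adjusted p of 0.0873. It lay above on both scales; it is a predicted gene on chromosome 2, and how reads shared with similar genes were assigned is not given in the sources used here. Prkar2b, a regulatory subunit of protein kinase A, was at 5.59, 4.64 and 4.80 in controls and 8.59, 9.70 and 8.45 in cKO. Its groups were apart on both scales, with a difference of 0.77 ± 0.111 and an adjusted p of 0.253.

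A pair of dynein light chains came next to these. Dynll1, of the LC8 type, was at 22.4, 23.6 and 26.1 in controls and 38.9, 35.1 and 40.2 in cKO (0.65, adjusted p 0.243), with overlap as deposited. Dynlt1b, of the Tctex type, was 0.66 and above on both scales (adjusted p 0.503). Armcx1, an outer mitochondrial membrane protein linked to mitochondrial transport in axons, was at 10.3, 10.6 and 11.9 in controls and 18.9, 16.4 and 15.03 in cKO (0.59), and its groups were apart on both scales.

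The remaining genes of the 20 with smallest p were Crk, Rnf19b, Pantr1 and Rpl21-ps8. Crk, an SH2 and SH3 adaptor, was 0.88 and Rnf19b, a RING-type ubiquitin ligase, was 0.58; both overlapped as deposited, where Rnf19b was −0.03. Pantr1, a long noncoding RNA, was 0.90 and above on both scales. Rpl21-ps8 (0.76) is a processed pseudogene, and whether reads of its parent gene were assigned to it is not given in the sources used here.

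**Figure D3:**
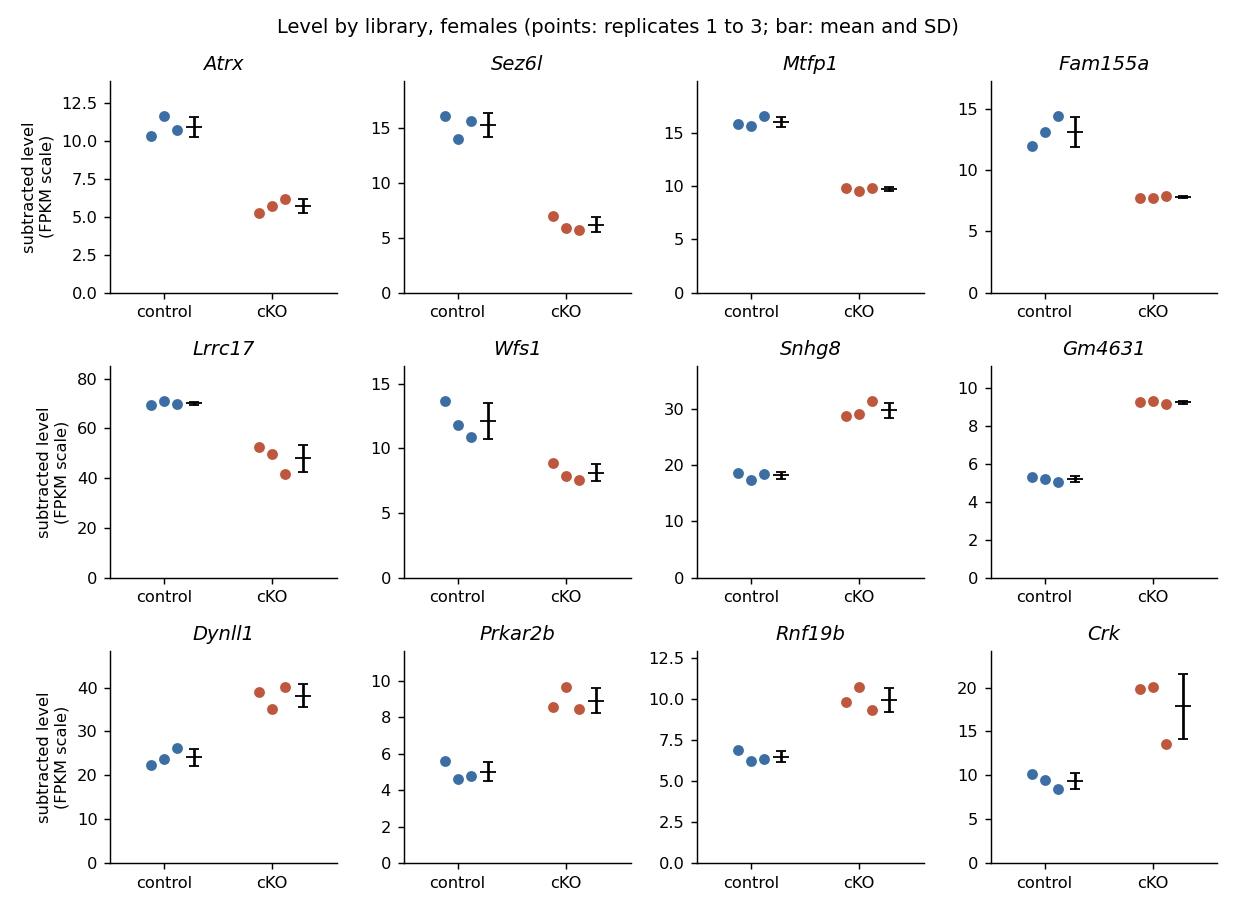
Subtracted level (FPKM scale, axes from 0) of 12 genes in each female library; points are replicates 1 to 3 from left to right, and the black marks give the group mean and SD (n = 3). The groups do not overlap in any panel, and none of the 12 genes passed the adjusted threshold in the fit of 6 libraries. The genes were taken from those of smallest p on this scale, so the choice itself favoured groups that lie apart. As deposited, the groups overlap for Wfs1, Snhg8, Dynll1, Rnf19b and Crk.

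The male libraries hold the same contrast in other mice. There too a cKO library was the poorest: receptor background was 0.286 in cKO male 2 and 0.00664 to 0.0276 in the other males. Mapped bases were 3.66 Gb in cKO male 2 and 7.12 to 8.64 Gb in the others. Mtfp1 was −0.64 in males (17.5, 17.5 and 17.6 in controls, 11.3, 10.8 and 11.1 in cKO; adjusted p 0.00157) and Fam155a was −0.76 (adjusted p 0.0389), in the limma fit of 12 libraries. Snhg8 was 0.44 and Atrx −0.47 in males, with non-overlapping groups in the same direction as in females. Neither passed in males in that limma fit (adjusted p 0.335 for Snhg8 and 0.9997 for Atrx). Sez6l was 0.04 in males, where controls were at 13.6, 12.6 and 8.65 and cKO at 10.7, 14.7 and 10.2, and its male minus female difference was 1.28 with an adjusted p of 0.794. Limma called 0 of 6466 genes for a difference between the sexes, and the smallest adjusted p was 0.305 (at an unadjusted p of 0.05, 92 genes were more positive in males and 153 more negative). Of the 100 genes of smallest p in females, 80 had the same sign in males and 29 were without overlap on the same side, against 60.3% and 8.90% of all tested genes. In males 348 of the 6053 genes lay above without overlap (5.75%) and 385 below (6.36%). Among the 20 genes of smallest p in females whatever their direction, 13 had the same sign in males and 5 were without overlap on the same side. The other 7 had the opposite sign in males: Rnf19b (−0.14), Pantr1 (−0.48), Rpl21-ps8 (−0.24), Prkar2b (−0.04), Armcx1 (−0.06), Lonrf2 (0.08) and Sez6l (0.04). For Rnf19b and Pantr1 the male groups did not overlap, with cKO below control, and the limma test of the difference between the sexes gave adjusted p of 0.305 and 0.35. Of 16 genes singled out in earlier work on these data 7 were tested, with a median of −0.62 and 4 below on both scales; they were chosen on these libraries, so this is not independent evidence.

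**Figure D4:**
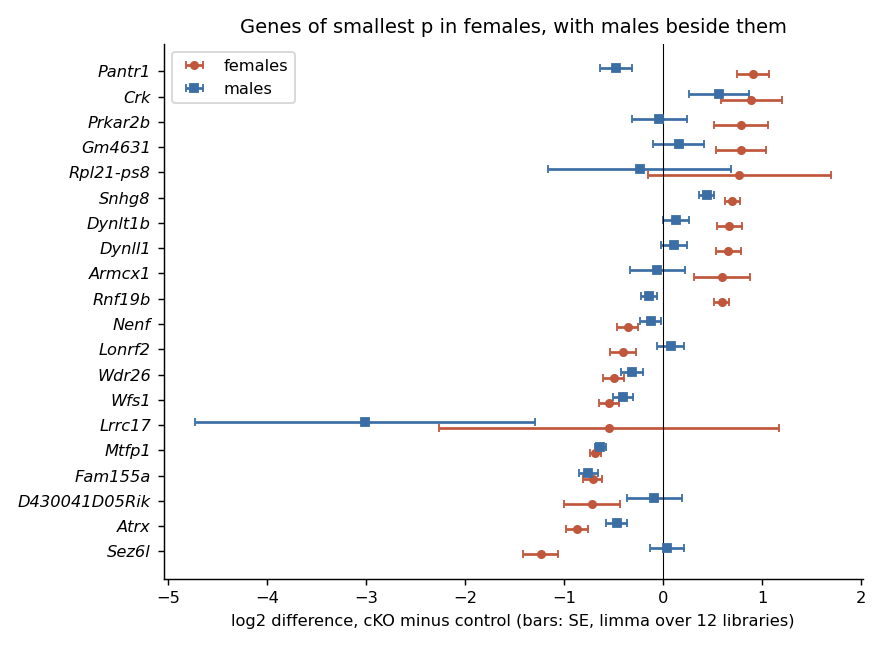
Log2 difference, cKO minus control, with SE bars, in females (red circles) and males (blue squares) from limma over 12 libraries, for the 20 genes of smallest p in females. Mtfp1 and Fam155a lie together in both sexes, whereas Sez6l lies at −1.24 in females and 0.04 in males.

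The gene groups were read by counts and medians, beside a median of 0.00 over all tested genes. Of all 6053, 2981 lay on the lower side, and 1.98% lay above and 4.92% below on both scales. For the synapse, 26 of 29 listed presynaptic release genes were tested: 0 were called, 16 lay on the lower side and the median was −0.06. Bsn, the active zone scaffold bassoon, was at 10.7, 6.67 and 7.74 in controls and 5.70, 5.24 and 4.65 in cKO (−0.62, adjusted p 0.503). Rimbp2, which links calcium channels to the release site, was −0.37, and both were below on both scales. Vamp2, the vesicle SNARE synaptobrevin, was −0.53 and overlapped as deposited.

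Of 29 genes listed for postsynaptic glutamate signalling 24 were tested, with a median of −0.15. On the lower side were 15 (2981 of 6053 over all tested genes), and 3 were below on both scales (4.92% over all tested genes). Nlgn2, 1 of these 3 although a neuroligin of inhibitory synapses, was −0.43. Dlgap3, a scaffold of the postsynaptic density, went the other way at 0.41. Of 17 GABA genes 13 were tested (median −0.07); Gphn, the inhibitory scaffold gephyrin, was −0.32 with overlapping groups. Of 29 voltage-gated channel genes 18 were tested (median −0.03). Kcnq3, a potassium channel subunit, was at 15.02, 13.9 and 13.6 in controls and 12.2, 11.3 and 11.5 in cKO (−0.27, adjusted p 0.503), below on both scales.

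The title of the series names miR-137, a microRNA that represses several presynaptic genes. Its mature arms, from RefSeq on GRCm38.p6 (chr3, plus strand), are printed with the seed that pairs with targets, bases 2 to 8, in capitals; the 3p arm is the one for which these targets were reported.
mmu-miR-137-3p: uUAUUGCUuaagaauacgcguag
mmu-miR-137-5p: aCGGGUAUucuuggguggauaau
The Mir137 gene was at 0.053, 0.021 and 0.049 deposited FPKM in controls and 0.008, 0.440 and 0.056 in cKO. After subtraction it was at 0 in all 6 libraries. The annotated gene spans 73 bases and each mature arm 23, and whether these libraries recover RNA so short was not tested. The values therefore cannot show whether miR-137 differed between the genotypes. Of 14 reported targets 9 were tested, 0 were called and the median was 0.09. Zfp804a, a zinc finger gene associated with schizophrenia, was the 1 target above on both scales, where 1.98% of all tested genes lay. It was at 5.62, 5.23 and 4.58 in controls against 6.53, 6.15 and 6.53 in cKO (0.29, adjusted p 0.503).

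Among chromatin genes 0 were called. None of the 12 tested ATRX partners and heterochromatin genes, of 20 listed, had groups apart on the subtracted scale (median −0.05). Over all tested genes 7.76% lay above and 7.34% below on that scale, and 12 genes are too few to tell from those shares. Of 23 other SWI/SNF-type remodellers 11 were tested (median 0.01), and Smarca2, an ATPase of the BAF complex, was at 11.6, 11.9 and 11.7 in controls and 13.5, 15.9 and 13.1 in cKO (0.26). Of 13 genes beside Atrx on the X chromosome 6 were tested, with 0 apart and a median of −0.03, again too few to tell from the shares over all tested genes. Of 67 canonical histone genes 12 were tested (median 0.12; 0.04, 0.37 and 0.27 in cKO 1 to 3). Hist2h2aa1 was at 12.9, 15.3 and 10.4 against 2.68, 0 and 10.1, below on both scales; Hist2h2aa1 has a near-identical copy, so its count is uncertain. None of the 57 clustered protocadherins reached the level filter.

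For translation and respiration, 81 of 90 ribosomal protein genes were tested. On the subtracted scale 57 were on the higher side (3072 of 6053 over all tested genes), 15 lay above and 2 below (7.76% and 7.34% over all tested genes), and the median was 0.12 (0.08, 0.04 and 0.17 in cKO 1 to 3 relative to the control mean). Rps9 was at 32.2, 33.8 and 33.5 in controls and 40.7, 39.5 and 41.4 in cKO, and Rpl22 was 0.37, each with an adjusted p of 0.503. None of the 81 lay above on both scales, against 1.98% of all tested genes. As deposited their median was −0.27 and Rps9 was −0.19, beside −0.22 over all tested genes. The male median was 0.01.

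Nuclear oxidative phosphorylation genes had a median of −0.01 over the 69 tested of 82, with 4 above and 7 below on the subtracted scale (7.76% and 7.34% of all tested genes). Cox6b1, a subunit of cytochrome c oxidase, was at 97.1, 109 and 93.4 against 69.6, 63.9 and 85.5 (−0.46), and Atp5o, a stalk subunit of ATP synthase, was −0.29; both were below on both scales. The 13 mitochondrially encoded genes had a median of 0.12 and 0 apart. Among them mt-Atp6 was at 215, 327 and 456 in controls, 248 in cKO 1, and 2768 and 1659 in cKO 2 and cKO 3.

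The noncoding RNA lists had medians further from 0 than the synaptic ones. Of 10 nuclear long noncoding RNAs 7 were tested, 6 lay on the lower side and the median was −0.42. Relative to the control mean, the median of these 7 was −0.24, −0.37 and −0.39 in cKO 1 to 3. In controls 1 to 3 it was 0.19, −0.10 and −0.17, so control 3 lay near cKO 1. The median difference was −0.19 with the background as covariate, and −0.01 in males. Snhg11 was at 46.6, 31.3 and 30.9 in controls and 22.9, 26.9 and 18.0 in cKO, and Miat, a neuronal nuclear RNA, at 10.2, 8.64 and 8.14 against 5.32, 5.05 and 7.83. Both were below on both scales, at −0.66 and −0.55 with an adjusted p of 0.503, while Meg3 (−0.42) overlapped. Xist, the RNA that coats the inactive X chromosome, was present in all 6 libraries and the Y-linked genes were at most 0.365 FPKM, so each library matched its label of female.

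Of 16 small nucleolar RNA host genes 5 were tested. Snhg4 was 0.59 and above on both scales, and Gas5 was at 15.4, 6.58 and 6.60 in controls and 7.93, 17.5 and 15.05 in cKO, with overlap. The list median was 0.52, with 0.58 and 0.74 in cKO 2 and cKO 3 but −0.14 in cKO 1. Short structural RNAs split the same way: 8 of 9 were tested, with a median of 0.16 in cKO 1 and of −0.86 and −0.80 in cKO 2 and cKO 3. Rmrp was at 522, 722 and 687 in controls and 713, 216 and 353 in cKO, and Rny1 at 37.3, 57.6 and 67.6 against 59.0, 10.5 and 25.7. The libraries low for them are those with a background near 2, and its part in the difference was not tested.

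**Figure D5:**
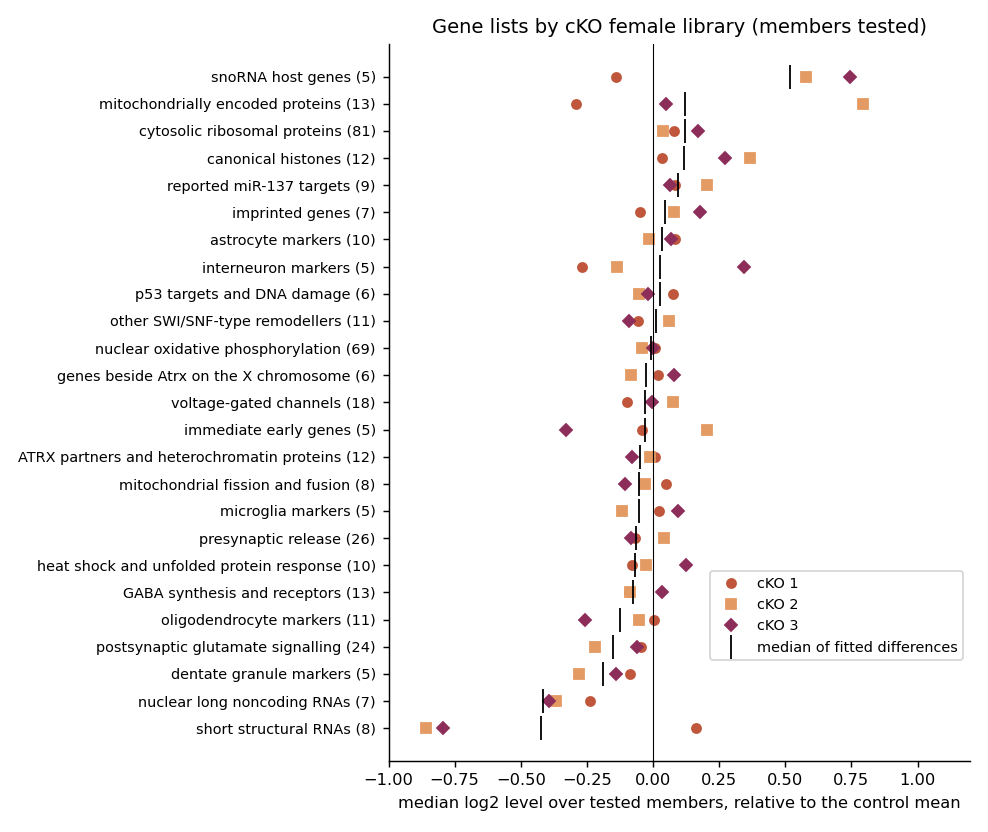
Median log2 level over the tested members of each gene list in cKO 1, 2 and 3, relative to the control mean of each gene, with the median of the fitted differences as a black bar; the number of tested members is in brackets, and lists with at least 5 are drawn. Nuclear long noncoding RNAs lie below 0 in all 3 cKO libraries, while short structural RNAs lie at 0.16 in cKO 1 and at −0.86 and −0.80 in cKO 2 and 3. Controls are not drawn, and nuclear long noncoding RNAs were also below 0 in controls 2 and 3 (−0.10 and −0.17).

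Cell type markers were read as RNA levels, which do not give the number of cells of a type. All 4 tested CA1 markers, of 8, were on the lower side (median −0.25), led by Wfs1, and the other 3 overlapped. Relative to the control mean, the median of these 4 was 0.20, −0.30 and −0.05 in controls 1 to 3. In cKO 1 to 3 it was −0.35, −0.50 and −0.21, so control 2 lay below cKO 3. Of 8 dentate granule markers 5 were tested (median −0.19), with 3 on the lower side and 2 on the higher, among them Lct (0.21). C1ql3 was at 42.9, 42.3 and 40.3 in controls and 39.3, 28.8 and 33.1 in cKO (−0.32), with overlap as deposited. C1ql2 was −0.52, below on both scales. Both of the 2 tested markers of CA2 and CA3, of 8, were on the lower side (median −0.11). Of 8 interneuron markers 5 were tested (median 0.03), with 3 on the higher side and 2 on the lower, Pvalb (−0.68) and Cck (−0.13). Npy, the neuropeptide Y of interneurons, was at 51.7, 87.6 and 84.0 in controls, 82.5 in cKO 1, and 236 and 190 in cKO 2 and cKO 3 (1.09, adjusted p 0.503).

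Glial medians were small. Oligodendrocyte markers had a median of −0.12 (11 of 12 tested), their precursors −0.09 (2 of 6), astrocytes 0.03 (10 of 11), microglia −0.05 (5 of 12) and endothelial and mural cells 0.01 (3 of 10), with 0 called. Choroid plexus and blood markers differed between single libraries. Choroid plexus markers (2 of 9 tested) summed to 4968 in control 2 and to 25.1 to 54.3 in the other 5, nearly all of it Ttr, the thyroid hormone carrier, at 4696 in control 2 against 7.89 to 35.1 elsewhere. Blood markers (4 of 5 tested) summed to 318 in cKO 1 and 195 in cKO 3 against 43.9 to 99.0 in the other 4; Hba-a2, an alpha-globin that shares reads with Hba-a1, was at 168 and 109 there. Thalamus and striatum markers summed to 10.04 to 18.5 in all 6 (1 of 10 tested). The part of these markers' tissues in other differences was not tested.

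Stress and activity groups had few genes above the filter and 0 called. Heat shock and unfolded protein genes had a median of −0.07 (10 of 15 listed symbols tested), with Ddit3, a transcription factor of the unfolded protein response, at 8.997, 10.004 and 10.3 in controls and 12.6, 15.9 and 12.6 in cKO (0.46). Immediate early genes (5 of 16) had a median of −0.03, p53 and DNA damage genes (6 of 20) 0.03, and interferon genes (3 of 15) −0.12. Ifit3, an interferon-induced antiviral protein, was at 3.06, 3.31 and 4.43 in controls and 5.55, 10.1 and 10.8 in cKO (1.145, above on both scales). Its control mean of 3.60 was under the level filter, so it was tested only through its cKO libraries, and its direction is partly set by that filter. Imprinted genes (7 of 21) had a median of 0.05, and the paternally expressed Nnat was at 12.2, 5.14 and 9.99 against 17.6, 28.7 and 14.8 (1.14, overlap as deposited). Taok1, a stress-activated kinase, and Tmem30a, a lipid flippase subunit, were among the 10 genes of largest fold that lay below on both scales with a mean of 20 or more. Taok1 was at 46.0, 43.2 and 43.6 against 36.6, 22.8 and 17.1 (−0.85), and Tmem30a was −0.58.

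The largest differences on the higher side lay mostly in genes far higher in cKO 2 and cKO 3 than in cKO 1. A difference above 1.5 was found for 254 tested genes, of which 38 are annotated as protein-coding and 0 were called. They were picked by that difference, so their values are a description. Their median level relative to the control mean was 0.44 in cKO 1, 3.34 in cKO 2 and 3.27 in cKO 3, and 0.83 in control 3, the control of highest background; cKO 1 lay inside the control range for 213. In 91 of the 254 (35.8%) the 6 libraries stood in exactly the order of their receptor background, which held for 2.25% of all tested genes. Picking by that difference favours genes high in cKO 2 and cKO 3, the 2 libraries of highest background. The 2 shares are therefore not comparable. Gm10800, a predicted gene and the most abundant of them, was chosen after its values were seen. It was at 20357, 10653 and 36946 in controls and 29347, 172031 and 198291 in cKO (2.32, adjusted p 0.503), in that order of background. Sfi1, a centriole-associated protein, was at 5.04, 4.23 and 7.43 against 7.07, 46.5 and 44.0, and Btbd35f24, of a multicopy X-linked family, at 1.09, 0.618 and 3.75 against 1.95, 13.7 and 20.2. Both were also named after their values were seen, and cKO 1 was below control 3 in each. Btbd35f24 was under the filter level of 5 in every control and in cKO 1, so it was tested only through cKO 2 and cKO 3. Subtracting a single background for each library did not remove these differences, and the part of the background in them was not tested further.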

How the data were processed

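Hippocampal RNA was extracted with a miRVANA kit and made into ScriptSeq Complete Gold libraries with rRNA reduction, per the labels' protocols. The authors deposited FPKM and coverage (signal) for each transcript. Per the submitters' processing notes, HISAT2 2.0.4, StringTie and the build GRCm38.p6 were used; trimming, annotation release and use of strand are not given in the sources used here, so overlapping genes cannot be told apart. The 137862 transcripts were summed to 54532 genes. Mapped bases were derived from the ratio of coverage to FPKM. Libraries were scaled by median of ratios over protein-coding genes. Tests used limma 3.58.1 (trend and robust) in R 4.3.3, two-sided, with Benjamini-Hochberg adjustment over all tested genes, and were checked on simulated data. The simulated background followed the same spread around a single level per library for every gene. That check therefore cannot speak for genes whose background departs from that level.

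Members and lists were chosen with earlier results of these data known. Named genes were the 20 of smallest p (10 in each direction, at most 3 predicted genes in each), up to 4 of smallest p in each list, the genes named in earlier work, and up to 10 of largest fold in each direction that were apart on both scales with a mean of at least 20 (0 qualified on the higher side); the text describes 58 of these 163. Replicate numbers are shared between groups, but same-numbered libraries did not deviate together (correlations 0.043, −0.269 and 0.219), so the fit has no block. Some results are not reported here.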

Additional observations from a re-analysis of the deposited data

How the results depend on the processing

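Of the alternatives tried, most called 0 genes in either direction, as with all 6 libraries: other pseudocounts, filters, backgrounds, quantile normalization, library weights (smallest adjusted p 0.0578), no subtraction, deposited FPKM, and the background as a covariate. Fitting all 12 libraries called 2 higher and 4 lower, and protein-coding genes alone 0 and 1. Leaving out 1 library gave 0 to 388 higher and 0 to 128 lower: cKO 1 accounts for the largest counts, and without cKO 3 limma called 1 lower gene, Gm10275 (adjusted p 0.0412), named after its values were seen. Atrx had an adjusted p of 0.019 with a difference of −0.87 in the 12-library fit, and it ranged from −0.93 to −0.82 without 1 library. Genes above on both scales numbered 902 of 14544 with a mean of at least 1 and 0 of 1522 with a mean of at least 20. Those below numbered 506 and 57 of the same genes. Without 1 library, 164 to 555 lay above and 409 to 1171 below, of 5926 to 6327 tested. Groups of 3 against 2 come apart more easily than 3 against 3, so these counts cannot be compared with those of 6 libraries.

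Of the 149 rule genes tested, 59 changed sign under some alternative. Among those described, as deposited Rnf19b was −0.034, Rpl22 −0.0046 and Rps9 −0.19, beside −0.22 over all tested genes. Without subtraction Rps9 was −0.12, beside −0.16 over all tested genes. With the background as covariate Ttr was 1.26 and Xist 0.13. Without cKO 2 and cKO 3, Rmrp was 0.16, Rny1 0.16, Gas5 −0.14, Xist 0.076 and mt-Atp6 −0.36; without control 3 as well, Rmrp was 0.22, Rny1 0.35, Gas5 −0.33, mt-Atp6 −0.093 and Sez6l2 0.027. Nalcn was 0.013 with library weights. Leaving out 1 library moved Nalcn to between −0.094 and 0.019, Sez6l2 to between −0.077 and 0.020, and Ttr to between −3.18 and 1.37. The cause of these reversals was not tested.

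A fit with the replicate number as a block called 0 genes (smallest adjusted p 0.58), with 325 higher at an unadjusted p of 0.05, and the pairing of numbers was not borne out. Control 2, for one, correlated best with cKO 1 (0.472). Depth limits genes below a level of 5, since background reached 2.25.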
